A study of Mus musculus with 2 samples.

Results

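Adipogenic transcription factors are the DNA-binding proteins that carry a progenitor cell towards the adipocyte. The 10 examined here were chosen by name among 26082 listed genes and all 10 were detected. They are the early factors Cebpb and Cebpd, the master factors Pparg and Cebpa, the commitment factors Ebf1, Ebf2 and Zfp423, the restraining factor Zfp521, and Klf15 and Srebf1, which act in adipocyte metabolism. The cells were primary mouse fibro-adipogenic progenitors (FAPs), the stromal cells of skeletal muscle from which intramuscular fat arises. The comparison asks how the transcriptome of these cells differs when TGFBR3, a coreceptor of the TGF-β family, is overexpressed. One group received plasmids overexpressing TGFBR3 and the other received the vector, and each group is 1 library. FAPs of both groups are labelled WT and were under adipogenic differentiation, for which the induction medium contained 20% FBS, 10 μg/ml insulin, 0.25 μM dexamethasone and 0.5 mM IBMX. The methods give up to 3 days in this medium for FAPs in general. The time for these libraries, and the number of mice, are not given in the sources used here.

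In the textbook order of adipogenesis, hormonal induction first raises Cebpb and Cebpd. Dexamethasone acts on Cebpd through the glucocorticoid receptor and IBMX acts on Cebpb through cyclic AMP. These factors then induce Pparg and Cebpa, which maintain each other and switch on the genes of lipid storage. Ebf1, Ebf2 and Zfp423 mark or establish commitment before this step, and Zfp521 opposes them.

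Total counts were 62321027 for the library labelled TGFBR3 OE and 83779203 for that labelled vector control. Tgfbr3 itself had FPKM values of 36.9 and 35.1, a log2 ratio of 0.07 (95% interval 0.04 to 0.10), and −0.06 after centring on the median gene. Counts of mouse Tgfbr3 were therefore not raised in the library that carries its label, and every direction below is that of the labels. Of the 8 FAP markers, all were detected, among them Pdgfra at FPKM 30.5 and 32.6. Markers of other cell types were low, with summed FPKM values of 15.9 and 19.0 over 9 macrophage genes (Lyz2 alone 12.2 and 16.4), 2.40 and 2.03 over 6 endothelial genes and 1.62 and 1.30 over 4 muscle cell genes. Of the macrophage genes, 4 and 3 had no counts, respectively, and Adgre1 and Tyrobp had none in either library. FPKM is the count scaled by gene length and by a library total. Differences are given as the log2 ratio of (FPKM + 1), TGFBR3 OE over vector control, a scale that understates differences of low genes. The 95% intervals are exact (Clopper-Pearson), and each covers counting error only and compares 2 libraries, not 2 conditions. No replicate stands behind any difference, so p-values are left out. The 10626 genes that reached an FPKM of 1 in both libraries had a median log2 ratio of 0.13, and this shift is removed in the values called centred.

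The factors differed widely in level, and their order was the same in both libraries. In the library labelled vector control, FPKM was highest for Cebpb and Cebpd, followed by Srebf1, Cebpa, Ebf1, Zfp521, Ebf2, Pparg, Klf15 and Zfp423. The same order held in the library labelled TGFBR3 OE, where the counting intervals of Ebf2 (2.13 to 2.40) and Pparg (1.99 to 2.40) overlapped. No other neighbors in either order had overlapping intervals. Klf15 and Zfp423 were below an FPKM of 1 in both libraries, and 8 of the 10 factors reached it.

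**Figure D1:**
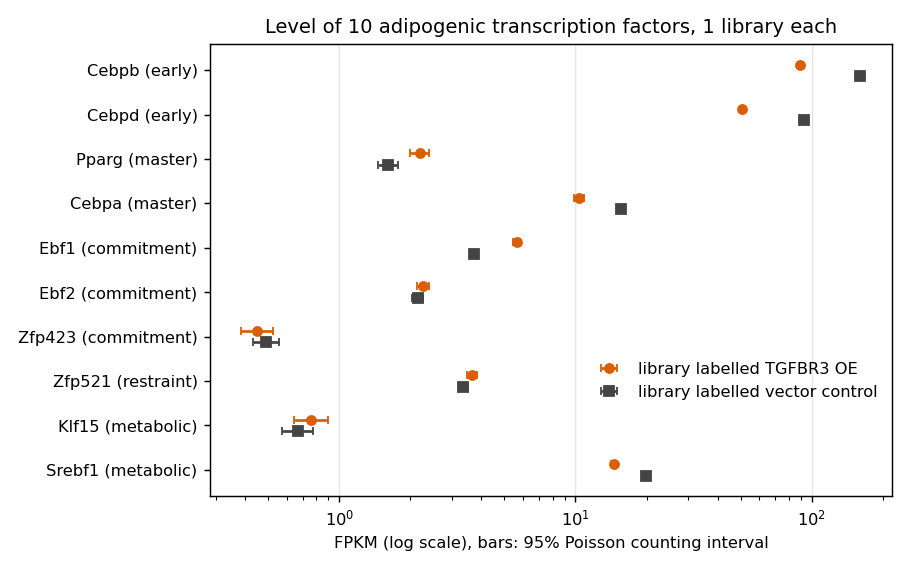
FPKM (log axis) of the 10 factors in the library labelled TGFBR3 OE (circles) and the library labelled vector control (squares), with 95% Poisson counting intervals, 1 library each. Cebpb, Cebpd, Cebpa and Srebf1 lie lower in the library labelled TGFBR3 OE, whereas Pparg and Ebf1 lie higher and the other 4 lie close together.

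Cebpa, Cebpb, Cebpd and Srebf1 were lower and Ebf1 higher in the library labelled TGFBR3 OE, Pparg was higher except when compared with genes of like GC content, and the others differed little. None of the 10 factors reached a 2-fold difference, which 1.41% of all listed genes reached upwards and 0.475% downwards. With the added 1, a listed gene below an FPKM of 1 in both libraries cannot reach it. At 1.5-fold, Cebpb and Cebpd were lower and none was higher, against 2.33% of all listed genes lower and 6.46% higher. Among the 11708 genes with FPKM of at least 1 in either library, 4.95% were 1.5-fold lower and 13.6% higher. The counting interval lay above 0 for Pparg, Ebf1 and Zfp521, below 0 for 4 factors, and held 0 for Ebf2, Zfp423 and Klf15. Over all listed genes, it lay above 0 for 37.4% and below 0 for 18.4%. Relative to the median gene, the interval lay above for Pparg and Ebf1 and below for 5 factors, the 4 named as lower and Zfp423. These shares over all listed genes were 23.4% and 46.4%. The added 1 draws intervals of low genes towards 0, and so below the median gene, which bears on Zfp423 and on the 46.4%. Without it, the interval of Zfp423 was −0.41 to 0.16, which held the median shift of 0.13. The median log2 ratio of the 10 factors was 0.01, beside 0.03 over all listed genes and 0.15 over genes with FPKM of at least 1 in either library.

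The early factors carried the largest differences. Cebpb (ENSMUSG00000056501), the leucine zipper protein that answers cyclic AMP, had an FPKM of 89.4 under TGFBR3 OE and 160.05 under vector control, from 9123 and 22241 counts. Its log2 ratio was −0.83 (95% interval −0.87 to −0.80), or 55.9% of the control level without the added 1. Cebpd (ENSMUSG00000071637), its partner in the first wave, had FPKM values of 50.7 and 92.8, from 12890 and 32127 counts. Its log2 ratio was −0.86 (95% interval −0.89 to −0.83), or 54.6% of the control level. The ratio of Cebpb to Cebpd counts changed 1.02-fold between the libraries (95% interval 0.99 to 1.06), a measure in which library scaling cancels. Effects of GC content do not cancel in it. With the GC trend described below removed, the log2 ratios of Cebpb and Cebpd were −0.58 and −0.96. Among genes whose mean FPKM reached 1, 1.81% had a lower log2 ratio than Cebpb and 1.70% a lower one than Cebpd. After centring, the values were −0.96 and −0.99. With TMM scaling of the counts, they were −1.06 and −1.09, past 2-fold.

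Cebpb and Cebpd are genes of 1 exon in GENCODE M21 on mm10. Cebpb lies on chromosome 2 from 167688915 to 167690418 and Cebpd on chromosome 16 from 15887286 to 15891031, both on the plus strand. On the opposite strand, Tmem189 covers 312 bases of Cebpb, 20.7% of its length, and Spidr covers 562 bases of Cebpd, 15.0%. The labels describe a library that keeps the strand, but the strand setting of the counting is not given in the sources used here. Tmem189 and Spidr were not lower, with log2 ratios of 0.03 and 0.37. The RefSeq promoter windows on GRCm38.p6, 250 bases before to 50 after a transcription start, held 7 of the 10 factors in 13 windows; Cebpd, Ebf2 and Zfp521 had none. Because cyclic AMP is part of the induction of Cebpb, the half-site of the cAMP response element, TGACG on either strand, was searched. It occurred in 20.8% of all 32851 windows and in those of Cebpb, Ebf1 and Klf15. Of 3 matches in the Cebpb window, the pair farther upstream is shown with the half-site in capitals; it starts at positions −180 and −53 relative to the transcription start:
Cebpb, chr2:167688723-167688752, plus strand: ggggcgggctggCGTCAcccgcgtccgtgg
Cebpb, chr2:167688850-167688879, plus strand: gtggccgggcaaTGACGcgcaccgaccggg

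The master factors differed in opposite directions. Pparg (ENSMUSG00000000440), the nuclear receptor on which adipocyte formation depends, was scarce, with an FPKM of 2.19 under TGFBR3 OE and 1.61 under vector control, from 440 and 442 counts. Its log2 ratio was 0.29 (95% interval 0.16 to 0.41), 0.16 when centred and 0.03 with the trend over GC content described below removed by bins, and −0.01 with it removed by a running median. Cebpa (ENSMUSG00000034957), the C/EBP protein of the differentiating adipocyte, had FPKM values of 10.4 and 15.6, from 1851 and 3798 counts. Its log2 ratio was −0.55 (95% interval −0.62 to −0.47), or 66.4% of the control level, and −0.67 when centred. Within each library, the FPKM of Pparg was 0.21 times that of Cebpa under TGFBR3 OE and 0.10 times under vector control. This ratio was 2.04-fold higher in the library labelled TGFBR3 OE (95% interval 1.77 to 2.36). A trend over GC content does not cancel in such a ratio, and with it removed the log2 ratios of Pparg and Cebpa were 0.03 and −0.29. Summed over Cebpa, Cebpb and Cebpd, FPKM was 150.5 and 268.5, so that the pool of these C/EBP transcripts stood at 56.1% of the control level. With 1 culture per group in bulk RNA, fewer cells expressing a factor and less RNA per cell cannot be told apart.

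Pparg lies on chromosome 6 from 115360951 to 115490399 and Cebpa on chromosome 7 from 35119293 to 35121928, both on the plus strand. Pparg has several promoters, whose transcripts the deposited gene-level counts pool, and Cebpa has 1 exon. C/EBP proteins bind Pparg and Cebpa in the classical cascade, so the letters TTGCNNAA, a common core of C/EBP sites, were searched on both strands. They occurred in 10.8% of all windows and in 2 of the 13 windows of these factors, 1 of Pparg and 1 of Zfp423. The window of Cebpa did not hold these letters. Both Pparg matches lie at the most downstream of its 3 starts, at positions −215 and −16 relative to it. They were chosen for display with the values of Pparg and the C/EBP genes known, and a part in those values was not tested (matching letters in capitals):
Pparg, chr6:115421840-115421869, plus strand: tgtaccaagtcTTGCCAAAgcagcagacag
Pparg, chr6:115422039-115422068, plus strand: accaaccaatcTTTTGCAAgacatagacaa
A match of letters is a description of the sequence and not a measured binding site.

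**Figure D2:**
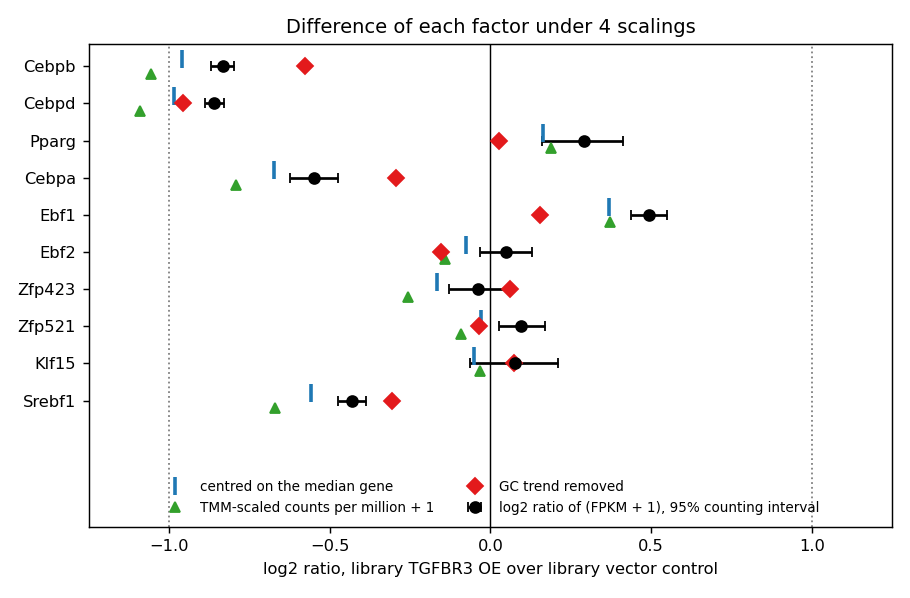
Log2 ratio of each factor (black circles, bars: 95% counting interval), with the value centred on the median gene (blue), from TMM-scaled counts (green) and with the GC trend removed (red); dotted lines mark 2-fold. Cebpb, Cebpd, Cebpa and Srebf1 stay below 0 and Ebf1 stays above 0 under all 4, Ebf2, Zfp423, Zfp521 and Klf15 change sign among them, and Cebpb and Cebpd pass 2-fold under TMM scaling.

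Among the commitment factors, Ebf1 was higher, while the counting intervals of Ebf2 and Zfp423 held 0. Ebf1 (ENSMUSG00000057098; chromosome 11, 44617317 to 45008091, plus strand) encodes the early B-cell factor that also promotes adipogenesis. It had FPKM values of 5.63 and 3.71, from 3727 and 3346 counts, a log2 ratio of 0.49 (95% interval 0.44 to 0.55) and a centred value of 0.37. Without the added 1, it stood at 152% of the control level. Its paralog Ebf2 (ENSMUSG00000022053; chromosome 14, 67233292 to 67430918, plus strand), known for the brown and beige adipocyte lineage, had FPKM values of 2.26 and 2.15. The log2 ratio of Ebf2 was 0.05 (95% interval −0.03 to 0.13) and turned to −0.08 when centred. Zfp423 (ENSMUSG00000045333; chromosome 8, 87661810 to 87959595, minus strand), a zinc finger protein of committed preadipocytes, was the lowest of the 10 factors, at FPKM 0.45 and 0.49, from 172 and 255 counts. Its log2 ratio was −0.04 with a 95% interval (−0.13 to 0.05) that held 0 but lay below the median gene. Without the added 1, the interval was −0.41 to 0.16, which held the median shift of 0.13. The log2 ratio was −0.17 when centred and turned to 0.06 with the GC trend removed.

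Zfp521 (ENSMUSG00000024420; chromosome 18, 13687013 to 13972787, minus strand), the zinc finger protein that restrains adipogenesis by opposing Ebf1 and Zfp423, differed little. Its FPKM was 3.65 and 3.35, from 1744 and 2178 counts. The log2 ratio was 0.10 (95% interval 0.03 to 0.17) and turned to −0.03 when centred, so its direction depends on the scaling. The FPKM of Ebf1 was 1.54 times that of Zfp521 in the library labelled TGFBR3 OE and 1.11 times in the library labelled vector control. This ratio was 1.39-fold higher under TGFBR3 OE (95% interval 1.29 to 1.5). A trend over GC content does not cancel in it, and with that trend removed the log2 ratios of Ebf1 and Zfp521 were 0.15 and −0.03.

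The metabolic factors differed from each other. Srebf1 (ENSMUSG00000020538; chromosome 11, 60199089 to 60222581, minus strand) encodes SREBP-1, which drives fatty acid synthesis. It stood at FPKM 14.5 against 19.9, from 5556 and 10376 counts, with a log2 ratio of −0.43 (95% interval −0.47 to −0.39), −0.56 when centred. Klf15 (ENSMUSG00000030087; chromosome 6, 90462576 to 90475238, plus strand), a glucocorticoid-induced factor of later adipogenesis, had FPKM values of 0.76 and 0.67, from 145 and 175 counts. Its log2 ratio was 0.08 (95% interval −0.06 to 0.21) and turned to −0.05 when centred, so the counting error exceeded the difference.

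Counts of 2 genes can be compared within each library without any library scaling, though not free of effects of GC content, and this was done for all 45 pairs of the 10 factors. The 95% interval of the change in ratio held 1 in 9 pairs. These were Cebpb with Cebpd, Pparg with Ebf1 and with Klf15, and the 6 pairs among Ebf2, Zfp423, Zfp521 and Klf15. By this measure alone, the proportions within the early pair, and among Ebf2, Zfp423, Zfp521 and Klf15, did not differ beyond counting error. With the GC trend removed, Cebpb and Cebpd stood apart, at −0.58 and −0.96. The largest change was between Cebpd and Ebf1, where the ratio of Cebpd to Ebf1 was 0.36-fold under TGFBR3 OE (95% interval 0.34 to 0.38). The ratio of Ebf1 to Srebf1 was 2.08-fold (95% interval 1.97 to 2.2), and the log2 ratios of these genes with the GC trend removed were 0.15 and −0.31.

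The GC content of the transcripts moved with the log2 ratio in these libraries. For the 11207 genes whose mean FPKM reached 1, the median log2 ratio went from 0.46 in the lowest of 20 bins of GC content to −0.25 in the highest. The factors range from 45.2% GC in Ebf1 to 67.2% in Cebpb. Relative to the median of their bin, Cebpb stood at −0.58, Cebpa at −0.29, Srebf1 at −0.31, Pparg at 0.03 and Ebf1 at 0.15. Cebpd, with 51.1% GC, stood at −0.96. Of the 200 genes nearest to Cebpd in GC content, 0.50% had a lower log2 ratio. The same share was 11.5% for Cebpb, 19.0% for Cebpa, 23.5% for Srebf1, 46.0% for Pparg and 68.5% for Ebf1. The GC content of Cebpb exceeds that of 99.8% of the genes whose mean FPKM reached 1. Most of the genes it was set against therefore have a lower GC content. Cebpd therefore lay far from genes of like GC content, whereas Pparg lay at their median. The part of GC content in the other differences was not tested.

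**Figure D3:**
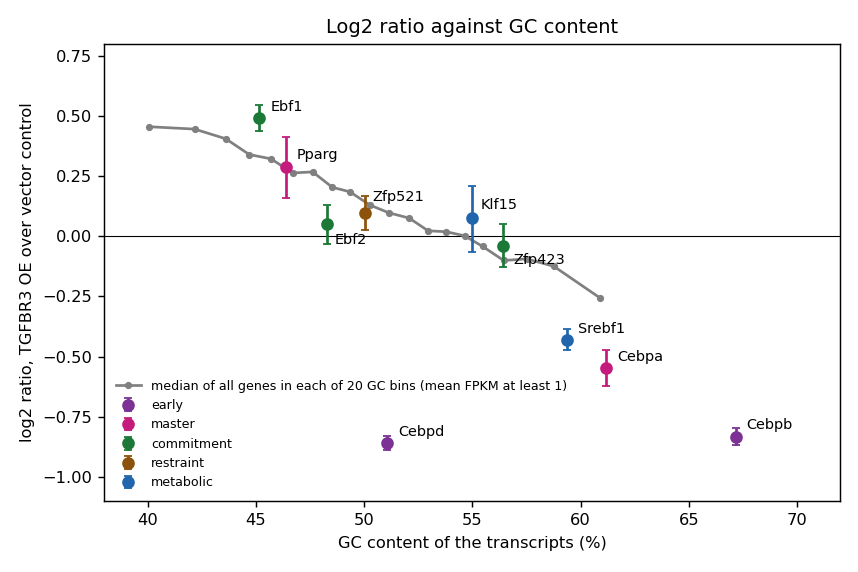
Log2 ratio (vertical axis) of the 10 factors against the GC content of their transcripts in percent, with 95% counting intervals and colors by role; the grey line joins the medians, in 20 GC bins, of all genes whose mean FPKM reached 1. The line goes from 0.46 down to −0.25 and ends at 60.9% GC. Cebpd lies farthest below it and Pparg lies on it, while Cebpa and Cebpb, at 61.2% and 67.2% GC, lie beyond its end.

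Of the 3 further genes measured in the list of C/EBP relatives, Ddit3 differed most, in the opposite direction to Cebpa, Cebpb and Cebpd. Ddit3, which encodes CHOP, a partner that keeps other C/EBP proteins from binding their usual sites and a marker of cell stress, reached an FPKM of 116 under TGFBR3 OE against 17.5 under vector control, which is a log2 ratio of 2.66 (95% interval 2.60 to 2.71). In the library labelled vector control, the FPKM of Ddit3 was 0.11 times that of Cebpb, and in the library labelled TGFBR3 OE it was 1.3 times. Ddit3 thus stood above Cebpb in one library and below it in the other. The ratio of Ddit3 to Cebpb was 11.8-fold higher (95% interval 11.3 to 12.4) and that to Cebpd 12.1-fold higher (95% interval 11.6 to 12.7). Cebpg, a family member without an activation domain, was at 0.24, which turned to −0.08 with the GC trend removed. Cebpz, listed here by its gene name, had a log2 ratio of 0.59, which was 0.19 with the GC trend removed. Cebpe was not analysed here.

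Other transcription factors of adipogenesis showed no common direction. Of 17 further factors that favor adipogenesis, none was 2-fold changed on the (FPKM + 1) scale and the median log2 ratio was 0.02. Egr2, an early factor also called Krox20, was the lowest, with an FPKM of 1.29 against 3.40 and a log2 ratio of −0.94 (95% interval −1.06 to −0.83). It was past 2-fold without the added 1, at −1.4, and with TMM scaling, at −1.43. Klf6 (0.72) and Nr3c1, the glucocorticoid receptor (0.68), were the highest, and were 0.38 and 0.34 with the GC trend removed. Of 19 factors that restrain adipogenesis, 18 were above the floor of 3 counts, and their median was −0.03. In this list, Ddit3 was 2-fold higher and Klf2, which represses Pparg, was 2-fold lower. Klf2 had an FPKM of 4.20 against 13.3, with a log2 ratio of −1.46 (95% interval −1.57 to −1.34). Hes1, a Notch target, was at −0.93 (−1.24 with TMM scaling), Irf3 at −0.54 and Nr2f2 at 0.52.

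For the signals that induce the early factors, 12 genes that respond to glucocorticoids or cyclic AMP had a median log2 ratio of 0.18, and none was 2-fold changed on the (FPKM + 1) scale. The genes with the largest values on this scale respond to cyclic AMP, namely Nr4a1 (0.66), Crem (0.56) and Pde4b (0.55). With the GC trend removed these were 0.76, 0.16 and 0.28. Pde4b, at FPKM 0.97 and 0.35, was past 2-fold with TMM scaling, at 1.08, and without the added 1, at 1.46, as were Nr4a1 and Nr4a3 by the latter. The glucocorticoid-induced genes Glul, Fkbp5 and Tsc22d3 were at −0.46, −0.28 and −0.12, while Per1 was at 0.36 (0.49 with the GC trend removed) and Sgk1 at 0.43 (these 5 and Nr4a3 were named after their values were seen). Of the 12 genes, 9 were higher and 3 lower in the library labelled TGFBR3 OE, where Cebpb and Cebpd were lower. Among all genes with FPKM of at least 1 in either library, 63.7% were higher and 36.1% lower. Whether the inducing signals differed was not tested.

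The target genes of the master factors were mixed. Of 23 genes that PPARG or CEBPA activate in adipocytes, 22 were measured, 14 of them lower and 8 higher in the library labelled TGFBR3 OE, with a median log2 ratio of −0.11. Among all genes with FPKM of at least 1 in either library, 36.1% were lower and 63.7% higher. Cfd, the secreted protease adipsin, had an FPKM of 15.3 against 39, with a log2 ratio of −1.29 (95% interval −1.39 to −1.19). Adipoq, which encodes adiponectin, had a log2 ratio of −1.07, and its counting interval (−1.19 to −0.94) spanned the 2-fold line. Adrb3, an adrenergic receptor of adipocytes, was at −0.78, from low FPKM values of 0.40 and 1.4, and at −1.76 without the added 1. Cidec, a lipid droplet protein, was at −0.58 (FPKM 0.49 and 1.23), and −1.31 without the added 1. Against this direction, Plin2, which coats lipid droplets in many cell types, had an FPKM of 243 against 116, with a log2 ratio of 1.06 (95% interval 1.04 to 1.07), and Pdk4, a kinase that limits glucose oxidation, was at 0.68. Plin2 was at 0.93 when centred and 0.84 with TMM scaling, below 2-fold in both. The markers of mature adipocytes, 8 genes that all belong to the target list and so add no further genes, were at a summed FPKM of 23.2 and 56.4, most of it from Cfd and Adipoq. All 7 that were measured were lower (median −0.47), and Lep was not analysed here. These markers moved with Cebpa, and their part in its difference was not tested. FAP markers also moved: Col3a1 was at −1.05, Col1a1 at −0.89 (−1.12 with TMM scaling) and Ly6a at 0.52, with a median of −0.09 over the 8 markers. Of the 7 preadipocyte markers, 3 were higher and 4 lower, with a median of −0.04. Dlk1, which is lost as preadipocytes differentiate, was at −0.64 and Cd55 at −0.33. Dlk1 was past 2-fold with TMM scaling, at −1.14, and without the added 1, at −1.04. The interval of the latter (−1.20 to −0.88) spanned the 2-fold line. F3 was at 0.44, with FPKM values of 139 under TGFBR3 OE and 102 under vector control.

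**Figure D4:**
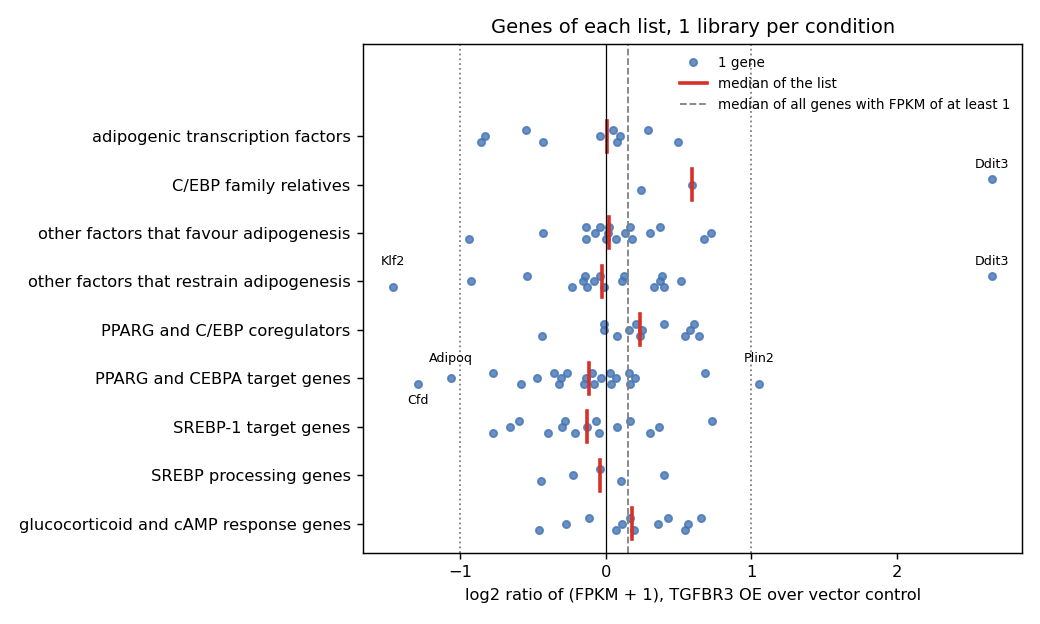
Log2 ratio of (FPKM + 1) of each gene (points) in 9 lists, with the median of each list (red bars), the median of all genes with FPKM of at least 1 in either library (dashed, 0.15) and 2-fold lines (dotted). The medians lie between −0.13 and 0.59, and the 5 genes past 2-fold are Ddit3, Klf2, Cfd, Adipoq and Plin2.

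Of 15 target genes of SREBP-1, 10 were lower and 5 higher, the median log2 ratio was −0.13, and none was 2-fold changed on the (FPKM + 1) scale. Among all genes with FPKM of at least 1 in either library, 36.1% were lower and 63.7% higher, with a median of 0.15. The stearoyl-CoA desaturase Scd1 had an FPKM of 42.1 against 72.6, with a log2 ratio of −0.77 (95% interval −0.80 to −0.74), and the desaturase Fads2 was at −0.66. Acacb, the acetyl-CoA carboxylase of the mitochondrial surface, was the highest, at 0.73, and 0.61 when centred. Its FPKM was 1.61 and 0.57, and it was past 2-fold without the added 1, at 1.51, and with TMM scaling, at 1.17. Thrsp, a low lipogenic gene with 4 and 110 counts that was named after its values were seen, and Scd1 were past 2-fold with TMM scaling, at −1.18 and −1.0. SREBP proteins are released from the membrane by cleavage, so 5 genes of this step were also examined. Insig1, which holds SREBP in the endoplasmic reticulum and is itself an SREBP target, was at −0.44, the protease gene Mbtps1 at −0.23 and Mbtps2 at 0.40, with a median of −0.04. Mbtps2 was at −0.05 with the GC trend removed.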

How the data were processed

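RNA of primary mouse FAPs was sequenced as paired reads of 150 nt, with 1 library for TGFBR3 OE and 1 for vector control. The authors deposited a raw count and an FPKM value, rounded to 2 decimals, for each of 26082 genes in each library. Per the labels, the processing notes list cutadapt 1.9, HISAT2 2.2.1 and StringTie 2.1.6 on mm10, whereas the paper's methods name STAR and FeatureCounts; the annotation release is not given in the sources used here. FPKM depends on the library total, which shifts all genes of a library together.

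From these values, log2 ratios of (FPKM + 1) were computed with scipy 1.17.1, with exact 95% intervals (from how the counts of a gene divide between the libraries). Intervals of ratios between 2 genes used the normal approximation on the log scale. Genes with no more than 3 counts in either library were treated as not measurable. The design was written for FPKM, and no count model was fitted because 1 library per group leaves no spread to estimate. TMM factors came from edgeR 4.0.16. GC content, exon length and coordinates came from GENCODE M21, which holds 99.7% of the gene identifiers. For a trend over GC content or exon length, genes were placed in 20 bins and each value was set against the median of its bin. The calculations were tested on simulated counts. The factors and gene lists were chosen with earlier results of these data known. Genes named from a list are those past 2-fold and up to 3 more by size of the log2 ratio, and others are marked where they appear. Reads are not independent molecules unless molecular identifiers were used, so the intervals can be too narrow even for counting error, the only error they address.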

Additional observations from a re-analysis of the deposited data

How the results depend on the processing

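With 1 library per condition no replicate can be left out. No paired analysis was possible because each group holds 1 library. Cebpb, Cebpd, Cebpa and Srebf1 were lower and Ebf1 was higher under all 11 alternatives, whereas Pparg was higher under 10 and at −0.01 under the running median over GC content, an alternative added after the data were seen. Ebf2, Zfp423, Zfp521 and Klf15 changed sign among the alternatives. The count of factors 2-fold lower went from 0 to 2, Cebpb and Cebpd, with TMM scaling and with median-of-ratios scaling. On the (FPKM + 1) scale, the same 2 factors were lower at the looser threshold of 1.5-fold. No factor was 2-fold higher under any alternative. The median log2 ratio of the 10 factors was −0.20 with TMM scaling, −0.23 with median-of-ratios scaling, −0.12 when centred, −0.18 with the exon length trend removed and −0.19 over the 8 factors with FPKM of at least 1. That of the PPARG and CEBPA target genes was −0.35, −0.37, −0.24 and −0.21 under the first 4 of these, and −0.22 by the plain ratio of FPKM. The scalings differ in the library total they use, and the filter leaves out Klf15 and Zfp423. Depth limits Zfp423, Klf15 and Pparg most, the factors with the fewest counts. The added 1 holds low genes below 2-fold, and Egr2, Hes1, Acacb, Thrsp, Pde4b, Nr4a1, Nr4a3, Adrb3 and Cidec are among those that pass without it.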

Other observations

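The coregulators through which PPARG and the C/EBP proteins act went mostly upwards in the library labelled TGFBR3 OE, as did most expressed genes. Of 13 genes, 10 were higher and 3 lower, the median log2 ratio was 0.24, and none was 2-fold changed. Among all genes with FPKM of at least 1 in either library, 63.7% were higher and the median was 0.15. The median of the coregulators was 0.11 when centred and 0.14 with the GC trend removed. The corepressor Ncor1 stood at FPKM 6.37 against 3.72, a log2 ratio of 0.64 (95% interval 0.59 to 0.69). The acetyltransferase Ep300 was at 0.61 and Med1, the Mediator subunit that nuclear receptors contact, at 0.58. With the GC trend removed, these 3 genes were at 0.44, 0.42 and 0.31, and with the exon length trend removed at 0.31, 0.27 and 0.31.

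The EBF relatives of Ebf1 and Ebf2 were low in both libraries. Ebf4 stood at FPKM 0.78 against 1.44, a log2 ratio of −0.46 (95% interval −0.58 to −0.32), while Ebf3 was at 0.06 (95% interval −0.01 to 0.14). Ebf1 was thus the only 1 of the 4 EBF genes whose counting interval lay above 0, beside 37.4% of all listed genes. With the GC trend removed, Ebf1 was at 0.15, Ebf2 at −0.15, Ebf3 at −0.12 and Ebf4 at −0.20.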
